A study of Mus musculus with 12 samples.

Results

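The 10 integrin mRNAs Itgb1, Itgb2, Itgb3, Itgb4, Itgb5, Itga2, Itga3, Itga5, Itga6 and Itgav were examined in RNA from light and heavy gradient fractions of 4T1, a cell line from mouse mammary gland cancer. They were chosen by symbol from the 55376 genes of the count file, as integrin α and β chains of epithelial and of leukocyte type, and the other 18 integrin chains in the file served for comparison. The cells carried either the empty pBICEP-CMV-2 vector (mock) or the same vector with METTL7A1 under its CMV promoter, and all had been selected with G418 as stable transfectants. Whether each transfectant was a single clone or a mixed population is not given in the sources used here. All cells received cycloheximide at 0.1 mg/ml for 5 min, which holds ribosomes on mRNA, before their extracts were separated on sucrose gradients. Free subunits and monosomes (gradient fractions 3 to 7) made up the sub-polysomal pool and heavier fractions (8 to 11) the polysomal one. There were thus 4 groups with 3 libraries each, and the mock libraries have the letters A to C, those of METTL7A1 cells D to F. The study asked which mRNAs polysomes hold when METTL7A1 is expressed, and Itgb2 was among the mRNAs it followed up by qRT-PCR.

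Integrins are cell surface receptors made of an α and a β chain, and each chain reaches the membrane only once paired. They bind laminins, collagens, fibronectin, vitronectin or receptors on other cells, and link them to actin or, in the hemidesmosome, to keratin filaments. Mammary epithelial cells are known for β1 and β4 integrins that bind laminin and collagen, whereas Itgb2 encodes the β2 chain, known from leukocytes, where it pairs with the αL, αM, αX or αD chain. An mRNA that many ribosomes translate at a time sediments in the polysomal fractions, so that its level there, beside its level in the lighter fractions, is read as its engagement in translation.

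The start codon is where the scanning ribosome begins, and the bases around it are therefore shown for the 7 members on which the results below turn. Each window was read from the spliced sequence of the principal GENCODE transcript at its start codon, with 9 bases before the ATG, and the positions are on GRCm38. Capitals mark the base at -3, the ATG itself and the base at +4, counted from the A of the ATG.
Itgb2, ATG at chr10:77541969-77541971, plus strand: gaggggGacATGCtg
Itgb1, ATG at chr8:128705413-128705415, plus strand: tgcgaaAagATGAat
Itga5, ATG at chr15:103366524-103366526, minus strand: gcgggcActATGGgg
Itgav, ATG at chr2:83724735-83724737, plus strand: gccccgGcgATGGct
Itga2, ATG at chr13:114931931-114931933, minus strand: agacccAagATGGga
Itga3, ATG at chr11:95076334-95076336, minus strand: cccgcaGccATGGgc
Itga6, ATG at chr2:71787139-71787141, plus strand: cgcgcgCccATGGcg
In the common description of a start codon, a purine (A or G) at -3 and G at +4 favour initiation. Of the 10 members, 9 had a purine at -3 and Itga6 had C, against a purine in 86.9% of the 10556 windows of tested genes. G stood at +4 in 6 of 10 members, against 53.9% of windows, and both bases in 5 of 10, against 46.8%. Itgb2 and Itgb1 had the purine without the G.

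The library totals lay between 1817520 and 6966156 counts, so that 3 counts, taken as the limit of detection, correspond to 0.431 to 1.65 CPM, the counts scaled to a common library size. The CPM values given for genes are counts scaled to a common library size that includes TMM factors, so their scale differs somewhat from that of this limit. RPKM values divide CPM by the exonic length in kilobases so that genes can be compared. Mock libraries held 4 to 24 counts of Mettl7a1 and METTL7A1 libraries 989 to 2436, a separation that follows the labels. All 10 markers of epithelial cells had counts. Their summed level was 4274 to 5027 CPM in mock and 6930 to 7825 CPM in METTL7A1 polysomal RNA, and 3447 to 3568 CPM and 4167 to 5323 CPM in sub-polysomal RNA, with no overlap of genotypes in either pool. At an adjusted p below 0.01 in edgeR's quasi-likelihood test, 4 of these 10 markers rose (Krt8, Krt18, Krt19 and Cldn4) and 1 fell (Esrp1) in METTL7A1 polysomal RNA. Of all genes tested, 5.03% rose and 3.78% fell there. In sub-polysomal RNA 2 of 10 rose (Krt8 and Cldn4) and 2 fell (Epcam and Esrp1), against 10.5% and 7.69% of all genes. The 11 fibroblast or mesenchymal markers had lower sums with METTL7A1 in sub-polysomal RNA. These were 176 to 211 CPM, against 251 to 286 CPM in mock. Their polysomal sums overlapped, at 297 to 353 CPM against 352 to 435 CPM in mock. Among them, 4 were tested (Vim, Pdgfra, Zeb2 and Twist1), and 0 passed in either pool. The median over these 4 was -0.42 on the log2 scale for the sub-polysomal pool and -0.32 for polysomes. The part of the epithelial or mesenchymal markers in the results for integrins was not tested. The 4 endothelial markers summed to at most 0.96 CPM. The genotypes share no replicate letter, so differences between cultures or days of preparation cannot be told apart from genotype. The study describes its fractionations of 4T1 cells as independent ones of biological triplicates, but the labels tie no letter to a culture, and p-values measure the spread between these libraries. In such bulk RNA, more cells with an mRNA and more mRNA per cell cannot be told apart either.

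All 10 members passed the filter of 1 CPM in 3 libraries and were tested together with all other genes, 12224 in all. An α and a β chain were far ahead of the others in each group. Itgb1 (chr8:128685654-128733200), the β chain that pairs with most α chains, stood highest, at 254 ± 44.3 RPKM in mock sub-polysomal and 422 ± 72.3 RPKM in mock polysomal RNA (SD, n = 3). Itga3 (chr11:95044474-95076801), whose product forms the laminin receptor α3β1, was second, at 165 ± 17.9 and 301 ± 36.2 RPKM in these pools (SD, n = 3). The ranges of these 2 mRNAs over 3 libraries overlapped neither each other nor any other member in any of the 4 groups. Itgb1 made up between 76.1% and 85.6% of the summed β chain RPKM as group means, and Itga3 between 77.7% and 84.3% of that of the α chains. Here and below, these sums cover the 10 members only. They leave out other chains with counts, such as Itgb6 (group means of 2.80 to 4.05 RPKM) and Itga7 (3.45 to 7.66 RPKM).

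Itgb5 (chr16:33829665-33949338), a partner of αv in vitronectin receptors, had group means of 27.4 to 43.8 RPKM and the next place by mean in all groups except METTL7A1 polysomal RNA. In METTL7A1 sub-polysomal RNA this place was not resolved, as its range of 27.6 to 44.2 RPKM overlapped the 25.1 to 33.8 RPKM of Itgb2. Itgb2 (chr10:77530252-77565686), Itgav (chr2:83724397-83806916), Itga2 (chr13:114833081-114932100), Itgb4 (chr11:115974709-116008412), Itga6 (chr2:71786940-71856771) and Itga5 (chr15:103344286-103366763) followed in mock cells. In METTL7A1 polysomal RNA, Itgb2 stood above Itgb5, at 70.3 against 43.8 RPKM, with no overlap of their ranges. In mock sub-polysomal RNA, the order of Itga2, Itgb2, Itgav, Itgb4, Itga6 and Itga5 could not be resolved between neighbours, whose ranges overlapped. In METTL7A1 polysomal RNA most neighbours were apart, and the overlap of ranges was limited to Itga6 and Itgb4. Itgb3 (chr11:104608000-104670476), whose product pairs with αv and, in platelets, with αIIb, was last, with group means of 0.102 to 0.373 RPKM and 1 to 19 counts per library. Several of its libraries were thus near the limit of detection, and its log2 changes have wide intervals. All coordinates are chromosome, start and end on GRCm38. As the annotation used here gives it, other genes overlap Itga6, Itgav and Itgb4, with which reads may have been shared because the strand setting of the counting is not given, whereas no other gene overlaps Itgb2.

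**Figure D1:**
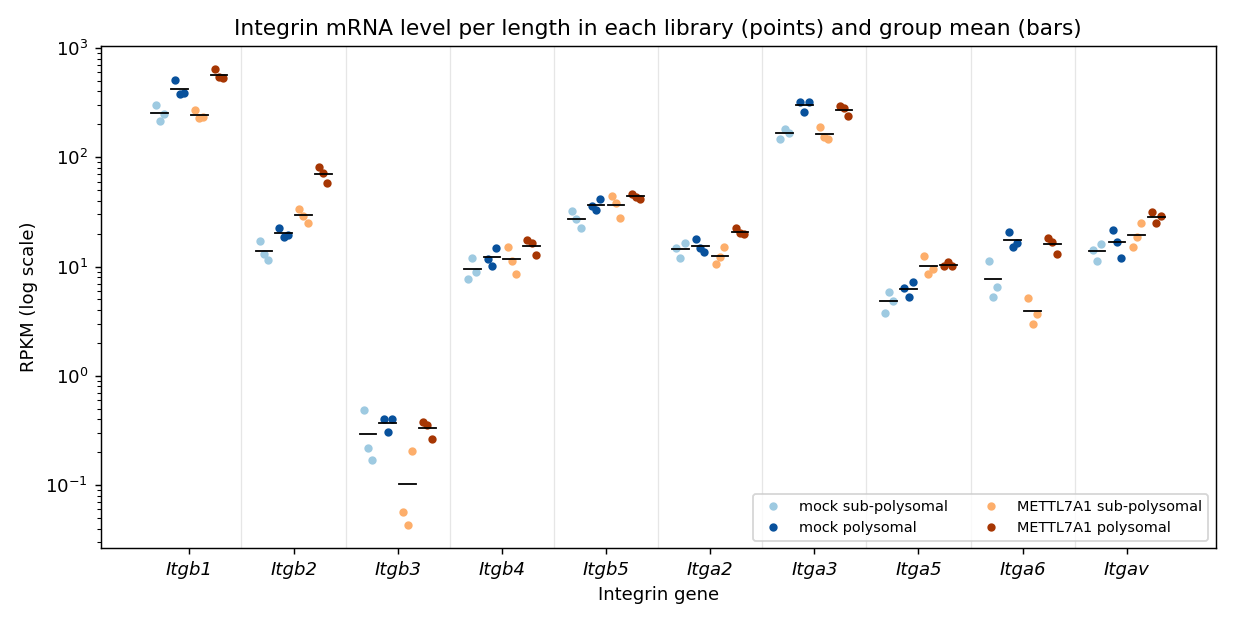
Level of each of the 10 integrin mRNAs in each of the 12 libraries, in RPKM on a log axis, with 1 point per library and a separate column of points for each genotype and pool. Itgb1 and Itga3 lie above all other members in every group, Itgb3 lies below all, and Itgb2 goes from a mean of 13.9 RPKM in mock sub-polysomal to 70.3 RPKM in METTL7A1 polysomal RNA.

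Itgb2 rose with METTL7A1 in each pool, and of the 10 members it had the largest log2 change in polysomal RNA. In mock cells its level was 50.8, 39.03 and 34.2 CPM in the sub-polysomal and 67.6, 55.8 and 58.2 CPM in the polysomal libraries (replicates A, B and C). In METTL7A1 cells it was 100.5, 86.3 and 74.6 CPM in the sub-polysomal and 240.1, 212 and 174 CPM in the polysomal libraries (replicates D, E and F). The lowest METTL7A1 library of each pool was above the highest mock library of that pool. In polysomal RNA Itgb2 rose 3.45-fold, a log2 change of 1.79 (standard error 0.16, 95% confidence interval from 1.44 to 2.13), with an adjusted p of 4.23e-07 in edgeR's quasi-likelihood test. In sub-polysomal RNA it rose 2.15-fold, a log2 change of 1.10 (standard error 0.18, 95% confidence interval from 0.73 to 1.47), with an adjusted p of 0.000162. This test, with Benjamini-Hochberg adjustment over all genes tested, stands behind each adjusted p given here unless another tool is named.

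Per length, Itgb2 mRNA rose from 20.4 ± 2.10 to 70.3 ± 11.2 RPKM in polysomal and from 13.9 ± 2.88 to 29.3 ± 4.36 RPKM in sub-polysomal RNA (SD, n = 3). Its share of the summed β chain RPKM was 4.17% ± 0.18 in mock and 10.0% ± 0.83 in METTL7A1 polysomal RNA, and 4.55% ± 0.52 and 9.06% ± 0.48 in sub-polysomal RNA (SD, n = 3). In neither pool did these shares overlap between genotypes. The summed β chains stood to the summed α chains as 1.38 ± 0.13 in mock and 2.02 ± 0.11 in METTL7A1 polysomal RNA, but as 1.5 ± 0.34 and 1.55 ± 0.05 in sub-polysomal RNA, where the ranges overlapped (SD, n = 3). Itgb1, the largest term of the polysomal ratio, had a mean level there of 422 RPKM in mock and 571 RPKM in METTL7A1 cells.

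The α chains with which β2 pairs in leukocytes were at or next to 0 in all libraries. Over all 12 libraries together, Itgal (αL) had 1 count, Itgam (αM) 1 count, Itgad (αD) 1 count and Itgax (αX) 0 counts, against 7156 counts of Itgb2, which had 90 to 1753 per library. None of these 4 reached 3 counts in any library, so a change in them was not detectable at this depth. All 3 single counts fell in mock libraries.

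Markers of leukocytes as a cell type were also low. Of 17 such markers, 9 had no count in any library, among them Adgre1, Lyz2 and Cd3e, which define macrophages, myeloid cells and T cells. Of the other 8, only S100a8, which encodes a calcium-binding protein of myeloid cells, exceeded 8 counts in a library. The markers without S100a8 summed to between 0.41 and 0.987 CPM in mock and between 0.77 and 2.98 CPM in METTL7A1 libraries, below the Itgb2 level of every library. S100a8 itself had 6 to 64 counts and was higher in METTL7A1 sub-polysomal RNA, with a mean of 12.8 CPM against 5.12 CPM in mock (log2 change 1.24, adjusted p = 0.00431). With S100a8 the whole list summed to 3.95 to 7.3 CPM in mock and 12.9 to 16.5 CPM in METTL7A1 sub-polysomal RNA, and to 2.32 to 4.47 CPM and 3.87 to 5.14 CPM in polysomal RNA.

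**Figure D2:**
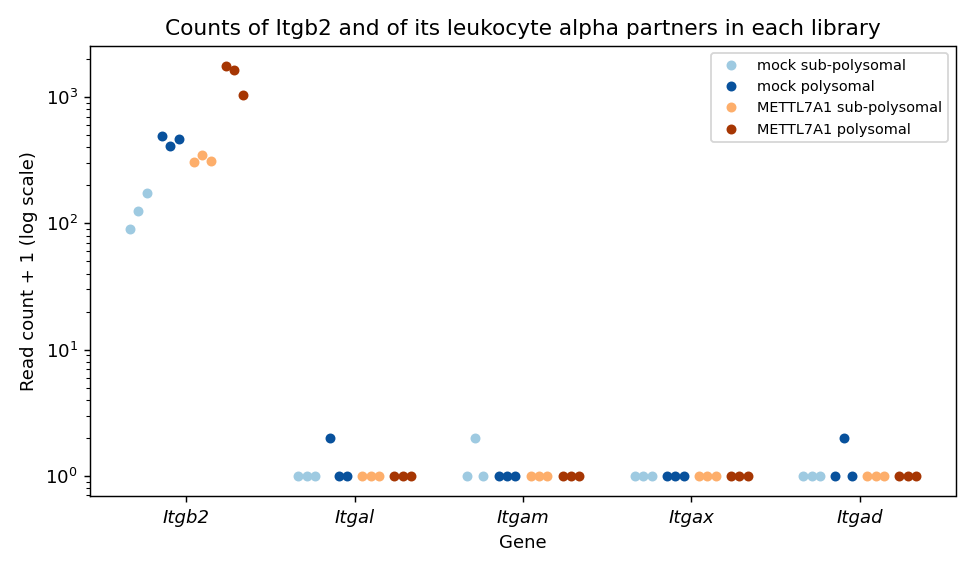
Counts of Itgb2 and of its leukocyte partner chains Itgal, Itgam, Itgax and Itgad in each of the 12 libraries, plotted as count + 1 on a log axis, with the libraries grouped by genotype and pool. Itgb2 has 90 to 1753 counts per library, whereas each of the other 4 mRNAs has 0 or 1.

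In polysomal RNA, 2 of the 10 members rose in METTL7A1 cells at an adjusted p below 0.01, Itgb2 and Itga5, and 0 fell. Of all tested genes, 5.03% rose and 3.78% fell by that rule, or 4.72% and 1.83% when libraries were scaled to Actb counts. With the study's further limit of a log2 change beyond 1.5, Itgb2 remained as 1 of 10, against 0.982% of all genes. The median log2 change was 0.39 over the members and -0.01 over all genes tested. All METTL7A1 libraries lay above all mock libraries for 6 members (Itgb1, Itgb2, Itgb5, Itga2, Itga5 and Itgav), a separation seen in 18.9% of genes, and for the other 4 the groups overlapped.

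Itga5 encodes the α chain of the fibronectin receptor α5β1. Its polysomal level was 28.0, 23.1 and 31.6 CPM in mock and 44.7, 48.3 and 44.3 CPM in METTL7A1 cells, with a gap between the groups that was wider than the spread within either. The log2 change was 0.73 (standard error 0.16, adjusted p = 0.00442). This call depended on single libraries, as the adjusted p was 0.0282 without mock replicate B, and 0.0109, 0.0340 and 0.0158 without METTL7A1 replicate D, E or F. Itgav encodes αv, which pairs with several β chains to bind ligands with an RGD motif. It was 153, 119 and 85.1 CPM in mock and 224, 177 and 203 CPM in METTL7A1 polysomal RNA. Its groups did not overlap, but the spread within mock was wide, and the log2 change of 0.76 (standard error 0.20) missed the threshold with an adjusted p of 0.0135. By DESeq2 it passed, with an adjusted p of 0.00947, and over all alternatives its adjusted p ranged from 0.000128 to 0.0561.

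The collagen receptor chain Itga2 was 126, 104 and 96.1 CPM in mock and 159.9, 145 and 140.3 CPM in METTL7A1 polysomal RNA, with a log2 change of 0.45 (standard error 0.15, adjusted p = 0.0504). Itgb1 was 1927, 1438 and 1461 CPM in mock and 2459.8, 2048 and 2027 CPM in METTL7A1 polysomal RNA, with a log2 change of 0.44 (standard error 0.18, adjusted p = 0.0942). In both mRNAs the groups were apart, yet the test did not separate them from the spread between replicates. Without mock replicate A, which was the highest mock library, the log2 change of Itgb1 was 0.60 with an adjusted p of 0.00582, the lowest over the alternatives, of which the highest was 0.311. Itgb4, the hemidesmosome chain, and Itgb5 had log2 changes of 0.34 and 0.26 (adjusted p = 0.251 and 0.307). Itga3, Itga6 and Itgb3 had estimates below 0, of -0.15, -0.11 and -0.15 (adjusted p = 0.584, 0.766 and 0.827).

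In sub-polysomal RNA, again 2 of the 10 members, Itgb2 and Itga5, rose in METTL7A1 cells and 0 fell, where 10.5% of all genes rose and 7.69% fell, or 17.1% and 2.23% with scaling to Actb counts. In these 2 members all METTL7A1 libraries lay above all mock libraries, which held for 23.5% of genes. The median log2 change was 0.12 over the members and 0.00 over all genes tested. Itga5 was 16.4, 25.5 and 21.3 CPM in mock and 54.7, 37.2 and 41.4 CPM in METTL7A1 cells. Its log2 change was 1.04 (standard error 0.19, adjusted p = 0.000428). This call held with each replicate left out in turn (adjusted p of at most 0.00526), unlike that in polysomal RNA.

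Itga6, which encodes the α chain of the laminin receptors α6β1 and α6β4, was the only member whose libraries separated in the other direction. It had 48.5, 23.0 and 28.4 CPM in mock and 22.5, 12.9 and 16.0 CPM in METTL7A1 sub-polysomal RNA. All METTL7A1 libraries were below all mock libraries, by a small margin between 23.0 and 22.5 CPM, which occurred in 20.5% of genes. The log2 change of -0.92 (standard error 0.26) missed the threshold with an adjusted p of 0.0116, and it passed by DESeq2 with 0.0024, over alternatives that ranged from 0.000161 to 0.0860. Without mock replicate A, the highest mock library, it was -0.64 (adjusted p = 0.0372). For the other 7 members the libraries of the genotypes overlapped in this pool. The log2 changes of Itgb5 and Itgav were 0.43 and 0.49 (adjusted p = 0.0629 and 0.0853), and those of Itgb4, Itga2, Itgb1 and Itga3 lay between -0.20 and 0.28. Itgb3 had 5, 4 and 5 counts in mock and 1, 1 and 5 counts in METTL7A1 sub-polysomal libraries, and a difference was not detectable at this depth (log2 change -1.19, standard error 0.66, adjusted p = 0.178).

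**Figure D3:**
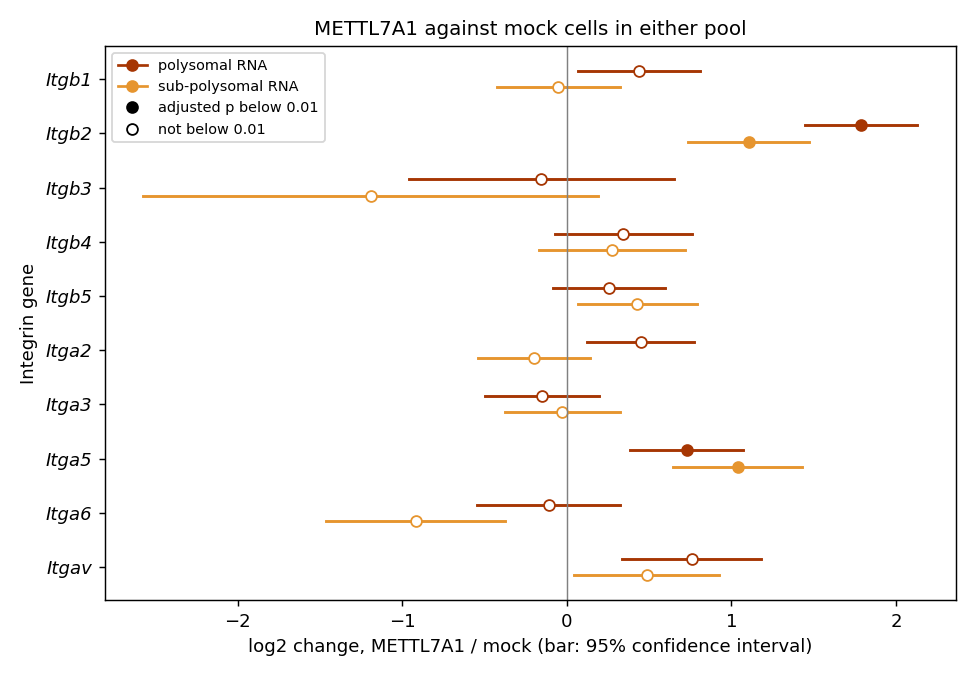
Log2 change from mock to METTL7A1 cells for each of the 10 members in polysomal and in sub-polysomal RNA, with bars for the 95% confidence interval and filled points where the adjusted p was below 0.01. Itgb2 (1.79 and 1.10) and Itga5 (0.73 and 1.04) are filled in both pools, and Itgb3 has the widest intervals.

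The values that compare the pools are relative to each library's scaling, so they give the share of an mRNA in a pool and not its amount. In mock cells Itga6, Itga3 and Itgb1 were higher in polysomal RNA by the test, 3 of 10 members against 15.7% of all genes, and 0 were lower, against 17.9%. With scaling to Actb counts these shares of all genes were 10.0% and 17.0%. All 10 estimates were above 0, with a median log2 change of 0.50 against 0.05 over all genes. That of Itga2 (0.08, adjusted p = 0.688) was below 0 with scaling to Actb counts and without mock replicate A or B. In 5 members all polysomal libraries lay above all sub-polysomal ones, which held for 27.2% of genes. Itga6 was at 33.3 ± 13.5 CPM in the sub-polysomal and 75.9 ± 12.7 CPM in the polysomal pool (SD, n = 3), with a log2 change of 1.25 (standard error 0.23, adjusted p = 0.000234). Itga3 followed with 0.86 (standard error 0.17, adjusted p = 0.000371) and Itgb1 with 0.73 (standard error 0.18, adjusted p = 0.00250). Itgb2 had a log2 change of 0.58 (standard error 0.17) and missed the threshold with an adjusted p of 0.0102, which ranged from 0.00192 to 0.0855 over the alternatives and was 0.00324 with the replicate letter as a block. The call of Itgb1 was lost without mock replicate B or C (adjusted p = 0.0186 and 0.0104) and under scaling to Actb counts (adjusted p = 0.0244).

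In METTL7A1 cells 5 of 10 members were higher in polysomal RNA by the test, against 23% of all genes, and 0 were lower, against 23.7%. With scaling to Actb counts these shares of all genes were 10.9% and 27.9%. The order was Itga6, Itgb2, Itgb1, Itga3 and Itga2. Itga6 was at 17.2 ± 4.92 CPM in the sub-polysomal and 70.2 ± 11.7 CPM in the polysomal pool (SD, n = 3), and its log2 change of 2.05 (standard error 0.24, adjusted p = 1.13e-06) was the only member change beyond 1.5 that passed, as 1.76% of genes did. The log2 change of Itgb2 was 1.26 (standard error 0.16, adjusted p = 3.22e-06) and that of Itgb1 1.22 (standard error 0.18, adjusted p = 1.4e-05). Itga3 had 0.74 (adjusted p = 0.000909) and Itga2 0.73 (adjusted p = 0.000637). Both of these calls were lost under Actb scaling (adjusted p = 0.0301 and 0.0232) and without METTL7A1 replicate E (0.0259 and 0.0134), and that of Itga2 also without replicate D (0.0224). Itga5, high in both pools of these cells, was at 44.4 ± 9.14 CPM in the sub-polysomal and 45.7 ± 2.20 CPM in the polysomal pool (SD, n = 3), a log2 change of 0.05 (adjusted p = 0.808). All 10 estimates were again above 0, with a median of 0.74 against 0.06 over all genes. That of Itga5 was below 0 with scaling to Actb counts. In 7 members all polysomal libraries lay above all sub-polysomal ones, which held for 34.5% of genes.

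**Figure D4:**
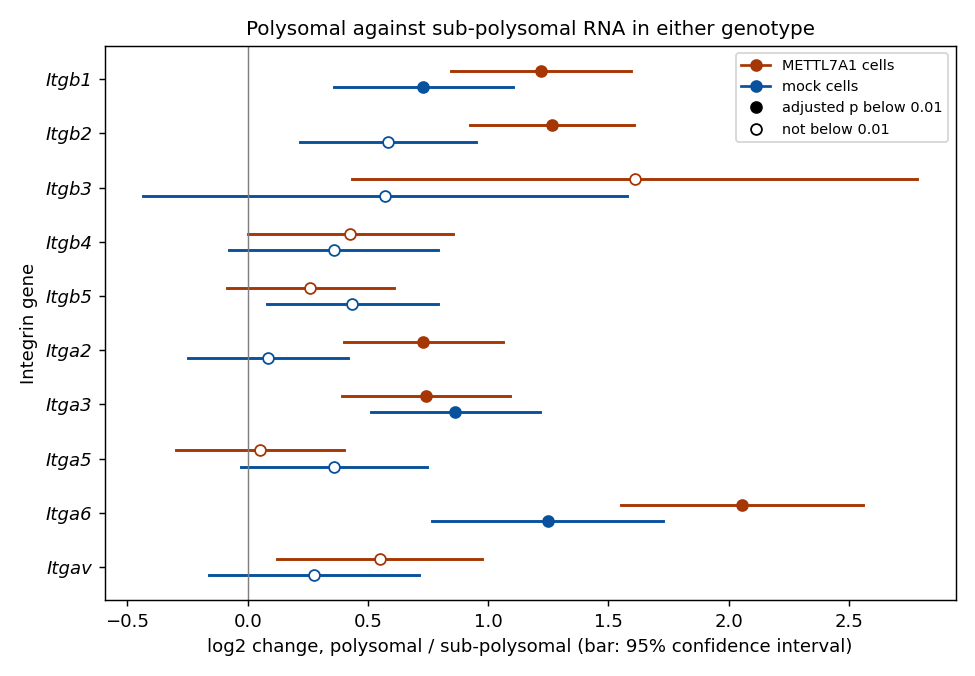
Log2 change of polysomal over sub-polysomal RNA for each of the 10 members in mock and in METTL7A1 cells, with bars for the 95% confidence interval and filled points where the adjusted p was below 0.01. With TMM scaling all points lie above 0, and Itga6 is highest in both genotypes, at 1.25 and 2.05.

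Whether METTL7A1 changed the distribution of these mRNAs between the pools was tested as the difference between the 2 pool contrasts, here called the shift to polysomes. No member passed (0 of 10), as was the case for 0% of all genes, and DESeq2 and limma-voom also passed 0 members, with 64 and 0 of all genes. In simulated data, log2 shifts of 0.5 and 1 passed for 0 and 12 of 50 genes, so shifts of that size were mostly missed there. In that simulation 12024 genes had the same mean in all 4 groups, and the changed genes were drawn from those with a mean above 5 CPM. Its pass rates are therefore not the sensitivity for these members in the real data. At an unadjusted p below 0.05, 3 of 10 members had a shift above 0, where 15.6% of genes reached that p in either direction. These were Itga6 with a log2 shift of 0.81 (95% confidence interval from 0.11 to 1.5, adjusted p = 0.251), Itgb2 with 0.68 (0.18 to 1.18, adjusted p = 0.183) and Itga2 with 0.65 (0.18 to 1.12, adjusted p = 0.177). For Itga2 the polysomal level was above and the sub-polysomal level below that of mock, with log2 changes of 0.45 and -0.20, neither of which passed. For Itga6 the estimate came with a sub-polysomal log2 change of -0.92 and a polysomal one of -0.11, and for Itgb2 with 2 changes above 0.

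The laminin receptor chain Itga3 had a log2 shift of -0.12 (95% confidence interval -0.61 to 0.37). Itgb5 and Itga5 also had estimates below 0, of -0.17 and -0.31 (adjusted p = 0.767 and 0.578). Itgb1, Itgav and Itgb4 had 0.49, 0.27 and 0.07, and Itgb3 had 1.04 with an interval from -0.56 to 2.64. In all, 7 of 10 members had an estimate above 0 (6 with scaling to Actb counts), against 49.4% of genes, and the median shift was 0.38 against -0.01 over all genes.

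Among the 9456 tested genes with a mean of at least 5 CPM, those most like Itgb2 over the 12 libraries were Plau, Anxa1, Loxl4, Mmp3 and Lamb3, with a Pearson correlation of log2 CPM of 0.980, 0.978, 0.977, 0.9746 and 0.972. These values describe 12 libraries that fall into 4 groups and share their scaling, and genes were ranked by them. Plau encodes urokinase, Anxa1 annexin A1, Loxl4 a lysyl oxidase, Mmp3 stromelysin-1 and Lamb3 the β3 chain of laminin-332. Because these genes were picked for following Itgb2 over the same libraries, changes like those of Itgb2 follow from the choice. They are given as a description only. Their log2 changes from mock to METTL7A1 cells were 1.02, 1.02, 1.28, 1.58 and 1.20 for polysomes, and 0.54, 0.65, 1.07, 0.72 and 0.73 for the sub-polysomal pool, where each was the smaller value. Mmp3, for example, was at 166 ± 19.4 CPM in mock and 498 ± 80.0 CPM in METTL7A1 polysomal RNA (SD, n = 3).

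Of the 18 other integrin chains, 5 had no count in any library and 4 passed the filter on low values. These were Itga1, Itga7, Itga8 and Itgb6, of which none passed the test between genotypes in either pool. Itgb6, another β partner of αv, had log2 changes of 0.54 and 0.39 (polysomal and sub-polysomal RNA, adjusted p = 0.0344 and 0.139). Itga7, which encodes a laminin receptor chain, was higher in the polysomal than the sub-polysomal pool of mock (log2 change 0.73, adjusted p = 0.00652) and METTL7A1 cells (0.77, adjusted p = 0.00161).

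Of 31 integrin ligands, 21 were tested, 4 rose and 0 fell in METTL7A1 polysomal RNA, and 3 rose and 4 fell in sub-polysomal RNA. As shares of those tested, these are 19.05% in polysomal RNA, where 5.03% of all genes rose, and 14.3% and 19.05% in sub-polysomal RNA, where 10.5% of all genes rose and 7.69% fell. Genes past the test in both pools in the same direction were named by a rule, and the others here because their counts were small. In polysomal RNA the ligands that rose were Lamb3, Lama3, Thbs1 and Ccn2. Lamb3 and Lama3 encode chains of laminin-332, the ligand of α3β1 and α6β4, and had log2 changes of 1.20 and 1.01. Ccn2, a matricellular protein, rose in both pools, with 0.65 and 0.65 (adjusted p = 0.00623 and 0.00367). In sub-polysomal RNA Lamb3, Ccn2 and Tgfb1 rose, and Spp1, Lamb1, Tnc and Vcam1 fell. Vcam1, a counter-receptor of leukocyte integrins, fell there by 0.92 on the log2 scale (adjusted p = 0.00145). Icam1, the main ligand of β2 integrins, had 4 to 11 counts in mock and 0 to 4 in METTL7A1 libraries, and its log2 changes of -2.11 and -3.20 in the polysomal and sub-polysomal pools had adjusted p-values of 0.0666 and 0.0215.

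Of the proteins that act on integrins from inside the cell, 16 of 17 activators and inhibitors were tested. None of these 16 passed in polysomal RNA, where 5.03% of all genes rose and 3.78% fell. In sub-polysomal RNA 1 rose, Sharpin, which encodes an inhibitor of β1 integrin activation (log2 change 0.71, adjusted p = 0.00746). This is 6.25% of those tested, against 10.5% of all genes. Of 22 tested focal adhesion adaptors and kinases of 26 listed, 1 rose in polysomal RNA, Tns2, which encodes the adaptor tensin-2 (log2 change 0.82), and it rose also in sub-polysomal RNA (1.21). In polysomal RNA this is 4.55% of those tested, against 5.03% of all genes. In sub-polysomal RNA 4 rose in all (Tns2, Src, Bcar1 and Pxn) and 3 fell (Parva, Rsu1 and Actn1), or 18.2% and 13.6% of those tested, against 10.5% and 7.69% of all genes. Of 10 hemidesmosome and tetraspanin partners, all tested, 1 rose in polysomal RNA, where 5.03% of all genes rose. In sub-polysomal RNA 3 of the 10 rose (Cd82, Plec and Cd151) and 2 fell (Cd9 and Cav1), against 10.5% and 7.69% of all genes. Cd82, a tetraspanin that associates with integrins, rose in both, from 76.2 ± 9.29 to 265 ± 34.2 CPM in polysomal and from 45.8 ± 7.13 to 158 ± 29.6 CPM in sub-polysomal RNA (SD, n = 3). Its log2 changes were 1.80 and 1.81 (adjusted p = 3.68e-07 and 9.85e-07). Of 13 tested trafficking factors of 15 listed, Dab2 rose and Hs1bp3 fell in polysomal RNA, each 7.69% of those tested, against 5.03% and 3.78% of all genes. Rab25 rose in sub-polysomal RNA, again 7.69% of those tested, against 10.5% of all genes. With scaling to Actb counts, 4 ligands rose and 1 fell in sub-polysomal RNA (in place of 3 and 4), 7 adaptors rose and 0 fell (in place of 4 and 3), and 3 hemidesmosome and tetraspanin partners rose and 0 fell (in place of 3 and 2), where 17.1% of all genes rose and 2.23% fell. In polysomal RNA that scaling left 3 ligands that rose in place of 4 and no trafficking factor that fell in place of 1, and the counts of the other lists were as before. The shift to polysomes passed the test for 0 genes of each of these lists.

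The integrin mRNAs had in common long coding sequences, a feature the choice of members did not use. In the principal GENCODE transcripts these ranged from 2310 bases in Itgb2 to 5406 bases in Itgb4, with a median of 3145.5, against a median of 1374 over 10804 tested genes. Even the shortest, Itgb2, was longer than 77.3% of these genes. Across genes, coding length and the log2 change of polysomal over sub-polysomal RNA had a Spearman rho of 0.547 in mock and 0.538 in METTL7A1 cells, and coding length and the shift one of 0.188. These correlations are across genes of the same libraries, which are not independent replicates, and are given as a description. The median length of the 5′ UTR was 265 bases in the members and 165 bases in tested genes. The part of coding length in the pool contrasts of the integrin mRNAs was not tested.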

How the data were processed

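RNA from pooled sucrose gradient fractions was sequenced in 12 libraries. Per the labels and the methods, the authors prepared stranded rRNA-depleted libraries, aligned reads to GRCm38 (mm10) with STAR 2.5.3a and assigned them to genes with featureCounts. The deposited values are raw counts, with no normalization. Library totals set the precision, and limits from them cover counting error only. The 12224 genes that reached 1 CPM in 3 or more libraries were scaled with TMM factors and fitted in edgeR 4.0.16 (R 4.3.3), with 1 mean for each of 4 groups. Contrasts used the quasi-likelihood test with Benjamini-Hochberg adjustment over all 12224 genes, and standard errors were derived from its statistic. The threshold, an adjusted p below 0.01, and the call limit of 1.5 (log2) are those the methods give for total RNA. A prior count of 2 entered log2 CPM.

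The members and gene lists were chosen with earlier results of these data known. Named from the lists were genes that passed in both pools in the same direction with a mean of at least 5 CPM, at most 4 a list. Older ligand symbols (Cyr61, Ctgf) were matched through RefSeq synonyms. Alternatives used DESeq2 1.42.0, limma-voom 3.58.1, other scalings, filters and subsets of libraries. Other scalings were extended to counts over all genes and the lists after the data were seen. The fit was tested on simulated data. Sequences and transcript features come from GENCODE M21 on GRCm38. Total RNA libraries and other assays of the study were not analysed here.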

Additional observations from a re-analysis of the deposited data

How the results depend on the processing

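The 16 settings included an adjusted p below 0.05, which was applied only to the number of members past the test. Under the others, 635 of 685 single log2 changes kept their direction and side of the threshold, 18 moved past it, 13 fell short of it and 19 reversed. Itgb2 kept its calls in all, with a log2 change of 1.67 to 1.90 in polysomal (adjusted p up to 3.79e-05) and 0.97 to 1.36 in sub-polysomal RNA (adjusted p up to 0.0026). The number of members past the test between genotypes was 1 to 4 in polysomal RNA with a replicate left out (2 with all, 4 without mock replicate A, 1 without mock replicate B or METTL7A1 replicate D, E or F), and 2 to 3 in sub-polysomal RNA. Between pools, the number of members was 2 to 4 in mock cells (3 with all) and 3 to 6 in METTL7A1 cells (5 with all, 3 without METTL7A1 replicate E). An adjusted p below 0.05 gave 5 in mock cells, and Actb scaling gave 3 in METTL7A1 cells. Apart from Actb scaling, the shares of all genes between pools under these alternatives are not given here. These pool counts are therefore not read as particular to the members. For the shift, 0 members passed in every setting.

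Actb scaling moved the median of all genes to 0.26 in the sub-polysomal genotype contrast, -0.18 between METTL7A1 pools and -0.17 for the shift. Under it, sub-polysomal changes reversed to 0.19 (Itgb1), 0.040 (Itga2) and 0.24 (Itga3), pool changes to -0.015 (Itga2, mock) and -0.19 (Itga5, METTL7A1), and the shift of Itgb4 to -0.13. With a replicate left out, these values reversed within the ranges given, Itga6 in polysomal RNA (-0.21 to 0.049, above 0 without mock A and METTL7A1 F), Itgb1 (-0.16 to 0.066, mock A) and Itga3 in sub-polysomal RNA (-0.14 to 0.050, mock B and METTL7A1 E and F), Itga2 between mock pools (-0.071 to 0.29, mock A and B) and Itga5 between METTL7A1 pools (lowest -0.10, without E). The shifts of Itgb4 (-0.25 to 0.29, below 0 without mock B), Itgb5 (-0.30 to 0.045, mock C), Itga3 (-0.30 to 0.047, mock A) and Itgav (-0.056 to 0.52, mock C) did so too. The cause was not tested.

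The letters A to F recur in both pools of a genotype, and whether a letter marks a shared gradient is not given in the sources used here. Deviations of same-lettered libraries from their group means correlated between -0.292 and 0.107 over genes, so the letters were not treated as pairs in the reported fit. With the letter as a replicate block, 4 members passed between mock pools, Itgb2 among them (adjusted p = 0.00324), 5 between METTL7A1 pools and 0 for the shift. The share of all genes that passed with the block is not given here, so the pool counts are not read as particular to the members. Requiring 10 counts in every library kept 8855 genes and left no value for Itgb3, whose low counts limit its precision.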
